A study of Mus musculus with 2 samples.

Results

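The Mir322, Mir503, Mir351, Mir542 and Mir450 genes form a miRNA cluster on the minus strand of the mouse X chromosome. The cluster comprised 7 of the 1973 gene rows in each deposited count table (Mir322, Mir503, Mir351, Mir542, Mir450a-2, Mir450a-1 and Mir450b, in the direction of transcription), and all 7 were found by matching Ensembl identifiers to gene names. Mir450a-1 and Mir450a-2 appear in the annotation as Mir450-1 and Mir450-2. Total RNA of whole liver from B6NCrl mouse embryos at embryonic day 16.5 was profiled by microRNA sequencing, with no mutation or treatment named. The 2 biological replicates of this single group are pools of embryos of both sexes; 41 embryos made up the replicate 2 pool, and the labels do not give the number in the other. With 1 group, the questions open to these data are how the members rank, how they stand beside related miRNAs and how far they differed between the 2 pools.

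A miRNA gene is transcribed as a longer RNA, and its hairpin is cut into a short duplex whose arms are named 5p and 3p. An arm loaded into an Argonaute protein pairs with messenger RNAs mainly through its seed, bases 2 to 8 counted from the 5′ end, and lowers the output of the paired messages. miR-322 is the mouse counterpart of human miR-424. With miR-503 it belongs to the extended miR-15/16 group, known for restraining G1 cyclins and Cdc25 phosphatases and so slowing the cell cycle. miR-351 carries the seed of miR-125, the mammalian relative of lin-4. The fetal liver holds hepatoblasts, endothelial and mesenchymal cells and a large population of blood progenitors, and counts of whole tissue do not say which of them a miRNA came from. In such bulk samples fewer cells of a type and less RNA per cell cannot be told apart.

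The mature sequences below show why the members fall into separate seed groups; capitals mark bases 2 to 8. They were taken from RefSeq on GRCm38.p6, where the mature arms of all 7 members matched a gene row by position.
miR-322-5p: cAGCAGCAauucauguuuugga
miR-503-5p: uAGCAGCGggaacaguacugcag
miR-351-5p: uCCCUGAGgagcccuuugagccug
miR-542-5p: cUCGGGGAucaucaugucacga
miR-542-3p: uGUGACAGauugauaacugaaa
miR-450a-5p: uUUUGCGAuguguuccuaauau
miR-450b-5p: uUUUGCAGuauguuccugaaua
miR-450a-1-3p: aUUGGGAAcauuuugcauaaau
miR-450a-2-3p: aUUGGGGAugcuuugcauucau
miR-450b-3p: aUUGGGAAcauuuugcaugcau

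miR-322-5p and miR-503-5p were identical from base 2 to base 7 and differed at the last seed base (A8G, the miR-322-5p base being given before the position and that of miR-503-5p after it, with positions from 1 at the 5′ end). Over the 22 positions that both cover, 11 were identical. miR-450a-5p and miR-450b-5p were identical from base 2 to base 6, differed at the remaining seed bases (G7A and A8G, miR-450a-5p first) and were identical at 15 of 22 positions. Mir450a-1 and Mir450a-2 yield the same miR-450a-5p, base for base, so a read of that arm matches 2 loci. Their 3p arms differ from each other at 6 positions, and miR-450a-1-3p differs from miR-450b-3p at 2 positions (A19G and A20C, miR-450a-1-3p first). No other pair of different mature arms from the cluster shared a run of more than 7 bases, whereas miR-450a-1-3p and miR-450b-3p shared 18.

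On the mm10 assembly the 7 hairpins spanned 6353 bases of the X chromosome, 53047997 to 53054349. Mir322 (ENSMUSG00000065418.1; 53054255 to 53054349) is the most 5′ member, followed after 200 bases by Mir503 (ENSMUSG00000076122.1; 53053984 to 53054054) and after a further 630 by Mir351 (ENSMUSG00000065503.1; 53053255 to 53053353). Mir542 (ENSMUSG00000076140.1; 53049403 to 53049487) lies 3767 bases downstream of Mir351. Then come Mir450a-2 (ENSMUSG00000076399.1; 53048299 to 53048367), Mir450a-1 (ENSMUSG00000065486.1; 53048154 to 53048244) and Mir450b (ENSMUSG00000076050.1; 53047997 to 53048078), set 54 and 75 bases apart. None of the 7 hairpins overlapped another annotated gene on either strand. The long noncoding RNA gene Gm28730 (53051194 to 53053159) lies between Mir351 and Mir542 on the same strand, and C430049B03Rik (53055046 to 53057190) lies upstream of Mir322.

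The sense-strand gene counts came to 5930074 in replicate 1 and 5102289 in replicate 2, so that 1 count is worth 0.169 and 0.196 CPM (counts scaled to a library total of 1000000). Reads that mapped to several places made up 28.1% and 28.2% of all reads tallied and are in no gene's count. The hepatocyte miRNA Mir122 was the highest row, at 213274 and 214555 CPM. Erythroid (Mir451a, Mir144, Mir486), endothelial (Mir126a), mesenchymal (Mir143, Mir145a, Mir214) and myeloid (Mir223) markers were all detected, at summed levels of 16068 to 48545 CPM a list. The epithelial and biliary list summed to 4266 and 6376 CPM and the skeletal muscle list to 1119 and 2062 CPM. The neural list, in which 3 of 4 named genes have a row, summed to 114 and 134 CPM, with Mir124a-1 at 0. Of the short words of sequence in Mir124a-1, 42.6% recur in some other listed gene. Its reads may therefore map to several places and be left out, so the 0 does not show absence and the neural sum may be too low. No member of the cluster is a marker of these lists, and the part of any cell type in the cluster's level was not tested.

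Together the 7 members held 2.36% of the sense-strand gene counts in replicate 1 (139914 counts) and 2.21% in replicate 2 (112520 counts). The 95% intervals (Clopper-Pearson) were 2.347% to 2.372% and 2.193% to 2.218%, and the mean was 2.28% ± 0.11 (SD, n = 2). Such intervals hold only the error of counting, and reads that are PCR copies make them too narrow. All 7 were detected in both pools, with at least 43 counts each, and no count fell on the opposite strand of any member. The unit is the hairpin, so the 5p and 3p arms are summed. A read spans a whole mature miRNA and does not grow in number with gene length, and the order of the members was the same per hairpin base.

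Mir322, the leading member, had 120566 counts in replicate 1 and 96060 in replicate 2, or 20331 and 18827 CPM. It ranked 9 among all 1973 rows and was the highest X-linked miRNA gene. Its nearest neighbours in mean level were Mir17 (22237 CPM) above and Mir30e (18829 CPM) below. Mir17 lay above Mir322 in both libraries (23784 and 20690 CPM). Mir30e, at 17460 and 20197 CPM, lay below it in replicate 1 and above it in replicate 2, so that the order of these 2 was not settled. Within the cluster Mir322 held 86.2% of the counts in replicate 1 and 85.4% in replicate 2, with 95% Clopper-Pearson intervals of 85.99% to 86.35% and 85.16% to 85.58%.

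Mir351, the cluster's bearer of the miR-125 seed, had 12213 and 10256 counts, or 2060 and 2010 CPM. It ranked 62 of all rows and 5 among X-linked genes, next in mean level to Mir483 of the Igf2 locus (2079 CPM) above and Mirlet7f-2 (1959 CPM) below. That order held in replicate 1 only: in replicate 2 Mir483 was at 1813 CPM, below Mir351, and Mirlet7f-2 at 2057 CPM, above it. Mir322 exceeded it 9.87-fold in replicate 1 and 9.37-fold in replicate 2, as ratios of counts.

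Mir503, only 200 bases from Mir322 and nearly sharing its seed, was far lower, with 2379 and 2349 counts (401 and 460 CPM). The ratio of Mir322 to Mir503 was 50.7 in replicate 1 and 40.9 in replicate 2. Mir542 had 3486 and 2762 counts, or 588 and 541 CPM, and thus lay above Mir503 in both pools although its hairpin starts 4862 bases downstream of that of Mir322. Their ranges did not overlap, but the margin was the smallest between neighbours in the order: Mir542 exceeded Mir503 1.47-fold in replicate 1 and 1.18-fold in replicate 2. The rank among all rows was 109 for Mir542 and 121 for Mir503.

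Levels at the 3′ end of the cluster were lower and least certain. Mir450b had 1102 and 945 counts, or 186 and 185 CPM, at rank 154. Mir450a-1 had 119 and 105 counts (20.1 and 20.6 CPM), and Mir450a-2 had 49 and 43 counts (8.26 and 8.43 CPM), at ranks 239 and 286. Since reads of the shared miR-450a-5p match both loci and multimapping reads are left out, the counts of these 2 genes do not give the level of miR-450a. The share of a gene's 18-base words that recur in some other listed gene was 13.5% for Mir450a-1, 15.4% for Mir450a-2, 3.08% for Mir450b and 0% for each of the other 4 members. How much of the distance between Mir450b and the Mir450a genes (9.23-fold and 8.96-fold over Mir450a-1) comes from this was not tested.

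Level therefore did not follow position along the cluster. In the direction of transcription the mean CPM ran 19579 ± 1064 (SD, n = 2), 431 ± 41.9, 2035 ± 34.9, 565 ± 32.9, 8.35 ± 0.12, 20.3 ± 0.36 and 186 ± 0.44, falling to Mir503, rising to Mir351 and again from Mir450a-2 to Mir450b. The part of multimapping miR-450a-5p reads, left out of the Mir450a counts, in that last rise was not tested. In the order of level (Mir322, Mir351, Mir542, Mir503, Mir450b, Mir450a-1, Mir450a-2), no 2 neighbours overlapped over the 2 libraries. The SDs of Mir450a-2 (49 and 43 counts), Mir450a-1 (119 and 105) and Mir450b (1102 and 945) are smaller than the error of counting and understate the uncertainty. The levels compared are counts of different sequences. A bias of library preparation between sequences would be shared by both libraries and is not covered by the SD.

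**Figure D1:**
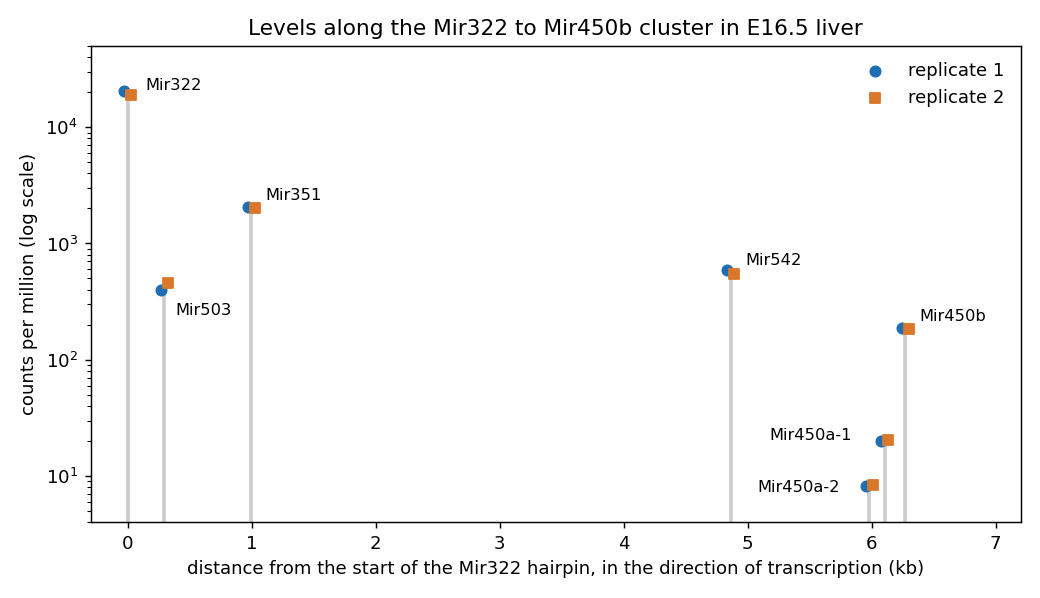
Level of each member in CPM (log scale) against its distance in kb from the start of the Mir322 hairpin, with a circle for replicate 1 and a square for replicate 2; grey lines run up to the mean. Mir322 stands at 20331 and 18827 CPM, Mir351 lies above its upstream neighbour Mir503, and Mir450a-2 is lowest at 8.26 and 8.43 CPM.

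Mir322 was next set beside the other miRNA genes whose 5p or 3p arm has its 5p seed, since miRNAs with 1 seed can pair with the same sites. The relatives are shown to let the bases outside the seed be compared with miR-322-5p above.
miR-15a-5p: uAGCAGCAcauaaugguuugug
miR-15b-5p: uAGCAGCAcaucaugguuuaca
miR-16-5p: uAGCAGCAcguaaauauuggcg
miR-195a-5p: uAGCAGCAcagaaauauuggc
miR-497a-5p: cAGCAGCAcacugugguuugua
Ungapped from the 5′ end, miR-322-5p had the same base as miR-15b-5p at 16 of 22 positions, as miR-15a-5p and miR-497a-5p at 15 of 22, as miR-16-5p at 12 of 22 and as miR-195a-5p at 11 of 21.

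Of 10 gene rows with this seed, Mir322 was the most abundant, with 56.4% of their summed counts in replicate 1 and 55.2% in replicate 2 (55.8% ± 0.81, SD, n = 2). Each row sums both arms of its hairpin, so any reads of miR-322-3p, whose seed differs, are counted too. The values are thus shares of gene counts and not of reads with the seed. Mir15a followed at 8825 and 8939 CPM, Mir16-1 at 3486 and 3648, Mir15b at 2677 and 1852, Mir16-2 at 544 and 656 and Mir195a at 207 and 171. The level of Mir322 in its lower library was more than that of Mir15a in its higher one, with no overlap. Mir195b had 1 count over both libraries. Mir6342, Mir6353 and Mir6419 had none, so that levels of up to 0.506 and 0.588 CPM in the 2 libraries remain possible for these 3. The seed group as a whole held 3.61% and 3.41% of all sense-strand counts.

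miR-16-5p is made by Mir16-1 and Mir16-2, so its reads match 2 loci and these genes may be counted low. To the extent that they are, the 55.8% of Mir322 is too high, and these counts do not show by how much. Mir497, which makes miR-497a-5p, was not analysed here as a gene of its own, but the row of Mir497b on the opposite strand had 1265 and 895 counts on its other strand (213 and 175 CPM); with those added, Mir322 held 55.5%.

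Mir351 stood in the same position among the genes with its 5p seed. Its relatives differ from it at many bases after the seed, with identity at 10 of 24 positions for miR-125a-5p and at 10 of 22 for miR-125b-5p.
miR-125a-5p: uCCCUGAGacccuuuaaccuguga
miR-125b-5p: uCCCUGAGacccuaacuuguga
Of 6 gene rows with the seed, Mir351 held 62.8% of the counts in replicate 1 and 63.3% in replicate 2 (63.0% ± 0.40, SD, n = 2). Mir125a was at 1030 and 938 CPM, Mir125b-2 at 154 and 172, and Mir125b-1 at 38.3 and 54.7, while Mir6367 and Mir6394 had no count. miR-125b-5p comes from 2 loci too, so Mir125b-1 and Mir125b-2 may be counted low and the share of Mir351 may be too high.

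**Figure D2:**
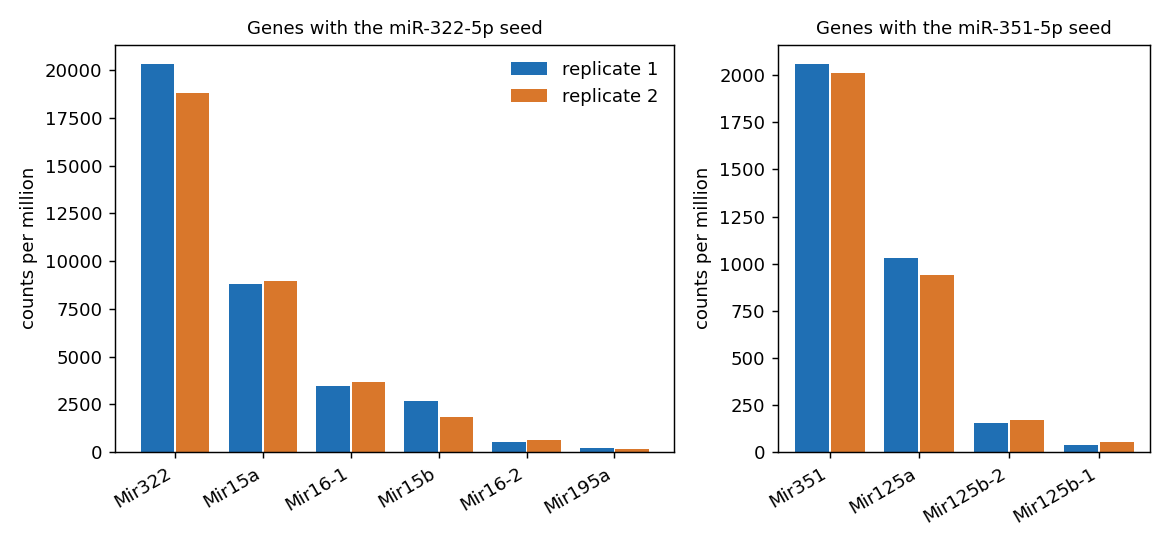
Level in CPM of the genes that have the miR-322-5p seed (left) and the miR-351-5p seed (right), for replicate 1 and replicate 2, with both arms of each hairpin summed. Genes with a mean under 1 CPM are not drawn. Mir322 at 20331 and 18827 CPM exceeds Mir15a at 8825 and 8939, and Mir351 at 2060 and 2010 CPM exceeds Mir125a at 1030 and 938.

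The seeds of the remaining arms were rarer in the mature table. The seeds of miR-322-3p, miR-503-5p, miR-503-3p, miR-351-3p, miR-542-3p, miR-450a-2-3p and miR-450b-5p each occurred at 1 locus, their own. miR-542-5p shares its seed with miR-6966-5p, whose gene Mir6966 had 3 counts in replicate 1 and 0 in replicate 2. The seed of miR-450a-1-3p and miR-450b-3p also occurs in miR-6352, whose gene had no count.

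On the X chromosome the cluster held 38.7% of all miRNA gene counts in replicate 1 and 37.6% in replicate 2 (38.1% ± 0.77, SD, n = 2), out of 120 listed X-linked genes. The X-linked genes together held 6.10% and 5.87% of the sense-strand total. The Mir106a-363 cluster, a relative of the Mir17 cluster that lies 305429 bases away on the same strand, summed to 516 and 501 CPM over its 6 genes, against 23594 and 22053 CPM for the Mir322 cluster. Mir221 and Mir222 summed to 444 and 423 CPM, and the 4 named genes of the Clcn5 intron cluster (Mir532, Mir188, Mir362 and Mir501) to 2608 and 2408 CPM.

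The spread of levels inside the cluster was compared with that of other clusters, taken as genes on 1 strand with gaps of up to 10 kb and at least 3 genes of 10 or more counts. Of 14 such clusters, the Mir322 cluster ranked 4 by summed mean level, 3 by the spread between its highest and lowest gene (11.20 on the log2 scale, against a median of 5.43) and 2 by the share of its leading gene (85.8% of the summed mean CPM, against a median of 45.6%). In the Mir23a cluster the leading gene held 96.8%, and in the Mir17 cluster 54.3%. Gaps of up to 5 kb or 50 kb left the spread at rank 3, of 13 and of 16 clusters, and put the leading share at rank 2 and rank 3. With genes that share an 18-base word left out, 4 members remained and the spread was 5.51, rank 5 of 11, while the leading share was 86.6%, rank 1 of 11. The wide spread thus rests on the Mir450 genes. The share of Mir322 can only rise when other members are dropped, so the 86.6% does not measure what reads lost from the Mir450a genes would change. That was not tested. These are descriptions of 2 libraries with no test. Multimapping reads lost from genes of the other clusters could change their spreads and leading shares, and so the ranks, by an amount not tested.

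**Figure D3:**
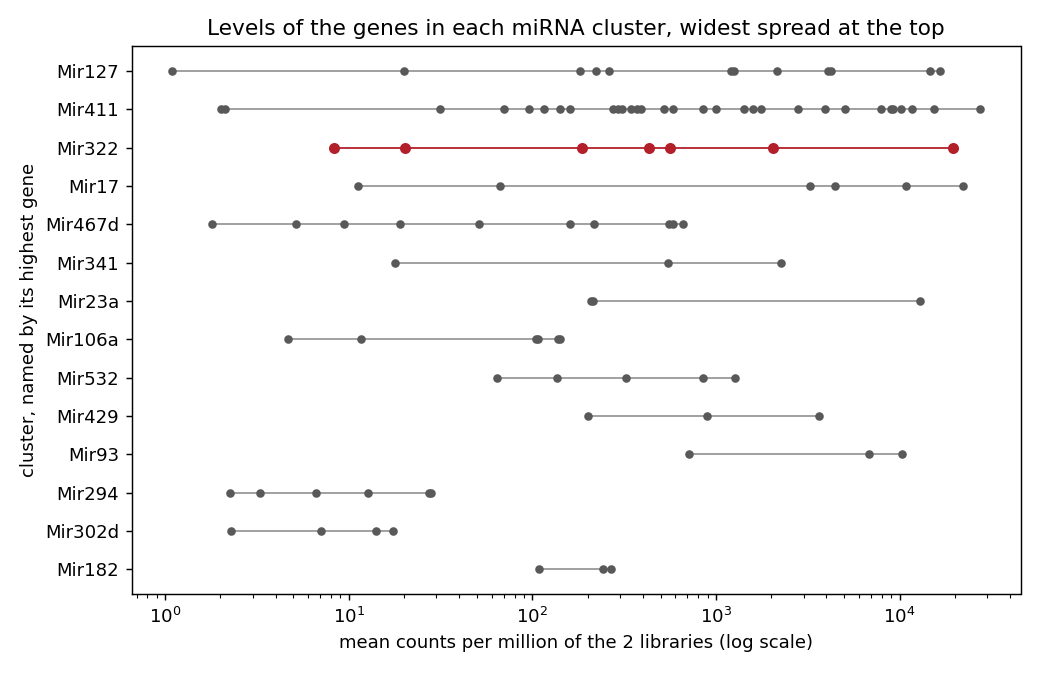
Mean level in CPM (log scale) of each gene with 10 or more counts in 14 miRNA clusters, each named by its highest gene and ordered by spread; lines join the lowest and highest gene. The Mir322 cluster, in red, is on line 3 from the top, with Mir322 set apart from its 6 partners.

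Between the pools, the 2 counts of each gene were compared by a two-sided exact binomial test, with the expected split set by the sense-strand totals, which compares the reads of these libraries and not conditions. Of 440 genes with 10 or more counts over both libraries, 44.5% passed an adjusted p of 0.05 (17.5% higher in replicate 2 and 27.0% lower); among the members, 3 of 7 passed, 1 of them higher and 2 lower. That share of the members is close to the background. Mir503 was higher in replicate 2 (log2 ratio 0.20, counting SE 0.04; exact binomial test, Benjamini-Hochberg adjusted p = 7.78e-06). Mir322 was lower by little (log2 ratio -0.11, counting SE 0.01; adjusted exact p = 8.61e-70), as was Mir542 (-0.12, counting SE 0.04; adjusted exact p = 0.0033).

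The log2 ratios of the other 4 members were -0.04 for Mir351, -0.0047 for Mir450b, 0.04 for Mir450a-1 and 0.03 for Mir450a-2, none of which passed. For the last 2 the counting SEs of 0.19 and 0.30 leave room for larger differences. The median log2 ratio of the members was -0.0047, beside -0.08 over all genes tested. The median size of the ratio without regard to sign was 0.04 for the members, against 0.27 for all genes tested and 0.20 for the 183 tested genes at 100 CPM or more. With TMM or DESeq2 scaling, which moved the median of all genes to -0.0023 and -0.0051, Mir542 no longer passed (log2 ratio -0.04 with TMM). The median size for the members was then 0.07. Mir503 (0.27 with each scaling) and Mir322 still passed, but the log2 ratio of Mir322 shrank to -0.035 with TMM and -0.037 with DESeq2.

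Mir503 and Mir322, the closest neighbours among the 5′ members, moved in opposite directions between the pools. Their log2 ratio (Mir322 over Mir503) was 5.66 in replicate 1 and 5.35 in replicate 2, a difference of -0.31 with a counting SE of 0.04, and it does not depend on how the libraries are scaled. For Mir542 the same ratio was 5.11 and 5.12. It was 3.30 and 3.23 for Mir351, 6.77 and 6.67 for Mir450b, 9.98 and 9.83 for Mir450a-1 and 11.25 and 11.11 for Mir450a-2. The counting SE leaves out any spread between livers or library preparations and is a lower limit of the error.

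Among relatives, Mir15b was 2677 CPM in replicate 1 and 1852 in replicate 2 (log2 ratio -0.53) and Mir125b-1 38.3 and 54.7 (0.51), both past the exact test and both further apart than any member of the cluster. In the miR-15/16 list 2 of 5 tested genes were higher and 2 lower in replicate 2, in the miR-125 list 2 of 3 were higher and 1 lower, and in the Mir106a-363 cluster 1 of 6 was higher and 2 lower. Of 34 tested X-linked genes outside the cluster, 5 were higher and 9 lower, with a median log2 ratio of -0.06. The sex makeup of the pools is not given, and its part in these X-linked levels was not tested. Markers of several cell types differed between the pools as well. Past the exact test, all 5 epithelial and biliary markers were higher in replicate 2 (median log2 ratio 0.56). So were both hepatocyte markers (Mir192 0.25, but Mir122 only 0.0086), Mir126a (0.09), Mir223 (0.06), Mir206 of muscle (0.89) and the neural Mir137 (1.05). The other tested muscle and neural markers, Mir133b (-0.28) and Mir132 (-0.13), leaned the other way and did not pass. The erythroid list had 2 genes higher (Mir144 0.42) and Mir486 lower (-0.66), and the mesenchymal list 2 higher and Mir214 lower (-0.44). The part of these cell types in the higher Mir503 and the lower Mir322 and Mir542 was not tested.

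**Figure D4:**
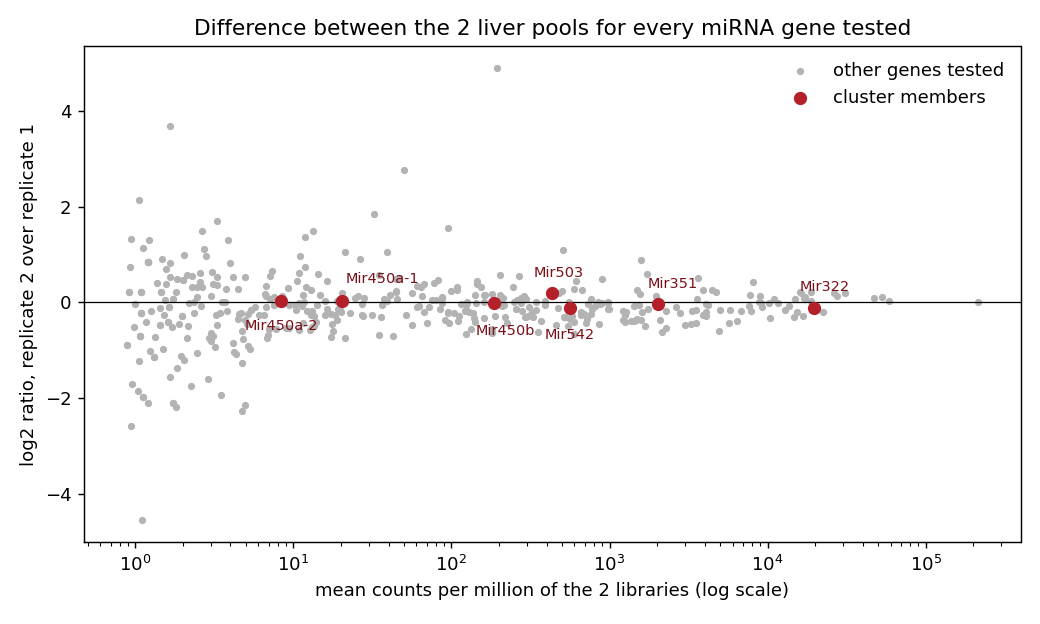
Log2 ratio of replicate 2 over replicate 1 against mean level in CPM (log scale) for the 440 genes tested, with the 7 members in red. The members lie between -0.12 and 0.20, near the line of no difference.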

How the data were processed

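The authors deposited raw counts per miRNA gene, 1 table per library and 3 count columns with no header; mm10 and GENCODE M4 are named in the text deposited with them. No aligner is named by the labels or the deposited text. The counting program is likewise not named. Column 3, the stranded column with the larger total, was used as the sense strand. The 4 tally rows (54.3% and 54.4% of reads) were left out. Names and positions came from GENCODE M21 on the same assembly (1894 of 1973 identifiers matched), with RefSeq synonyms for the Mir450a genes. CPM use each library's sense-strand total; a count of 0 allows up to 3 counts. Log2 ratios add 0.5 to each count. The exact binomial test (scipy 1.17.1, Benjamini-Hochberg over all tested genes) covered genes with 10 or more counts. No quasi-likelihood test was fitted, since 1 group has no contrast. Alternative scaling used edgeR 4.0.16 and DESeq2 1.42.0. Tested on simulated counts for replicate 2 over replicate 1 (455 genes), the test called 52% of genes changed 1.2-fold, 96% of those changed 4-fold and 0.778% of unchanged genes; the simulation held counting error only. Genes are named by rule: the members, the seed relatives, the other X-linked lists, the markers and the nearest genes in level. The members and lists were chosen with earlier results of these data known. Likeness of pattern over 2 libraries was not measured.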

Additional observations from a re-analysis of the deposited data

How the results depend on the processing

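The 7 members kept the same order of level per hairpin base. The cluster's share of 2.28% and the 19579 CPM of Mir322 depend on the total used: they were 2.10% and 17979 CPM irrespective of strand, 0.957% and 8208 CPM of all reads tallied, and 2.90% and 24906 CPM without Mir122 in the total. Leaving out each replicate gave 2.21% to 2.36% and 18827 to 20331 CPM, 85.4% to 86.2% for the share of Mir322 in the cluster, 55.2% to 56.4% for its share in its seed group and 62.8% to 63.3% for that of Mir351. Leaving out each replicate, the log2 ratio of Mir322 to Mir503 was 5.35 to 5.66, to Mir351 3.23 to 3.30, to Mir542 5.11 to 5.12, to Mir450b 6.67 to 6.77, to Mir450a-1 9.83 to 9.98 and to Mir450a-2 11.11 to 11.25. With genes sharing an 18-base word left out, the share of Mir322 was 86.6% of the cluster and 63.3% of its seed group, that of Mir351 was 67.4% and the spread was 5.51. The 3 shares can only rise when other genes are dropped, so they do not measure the loss of multimapping reads, which would make the seed-group shares too high. With TMM and with DESeq2 size factors, 1 member in place of 2 was lower in replicate 2. The log2 ratios of Mir351 (0.0413 and 0.0385) and Mir450b (0.0716 and 0.0688) then changed sign, neither past the test; both scalings raise every ratio. Over every gene with a count, 27.5% of 708 genes passed, and over those averaging at least 10 CPM 64.6% of 280; in each, Mir503, Mir322 and Mir542 passed. The addition of the Mir497b row was chosen after seeing the data. No test between libraries is possible without 1 of the 2 replicates. No paired analysis was possible because there is 1 group. Counting error is widest for the Mir450a genes.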
